A study of Homo sapiens with 4 samples.

Results

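RNA levels of 10 Hippo kinases and upstream regulators are described here, out of 17687 genes measured. They are LATS1, LATS2, STK3, STK4, SAV1, MOB1B, NF2, WWC1, FRMD6 and PTPN14. The members were given by name, with earlier results of these data known. Each was read by 1 probe set that named no other gene.

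The Hippo pathway is a kinase cascade that keeps the transcriptional coactivators YAP and TAZ out of the nucleus. The kinases STK3 and STK4, held by the scaffold SAV1, activate LATS1 and LATS2 together with MOB1 proteins, and the LATS kinases phosphorylate YAP and TAZ. NF2, WWC1, FRMD6 and PTPN14 act above or beside the kinases, at cell junctions and the cell cortex. Some of these inhibitors, LATS2 and NF2 among them, are known as target genes of YAP and TAZ, which is described as negative feedback.

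Total RNA came from KGN cells, a line derived from a human granulosa cell tumour, and was hybridised to Clariom S Human arrays. In siYT cells YAP and TAZ were targeted by siRNAs at 5 nM each, and siNC cells received a control siRNA at 10 nM. At 48 h after transfection the medium was changed to medium with 0.5 mM 8Br-cAMP, a cell-permeable cyclic AMP analogue, or to medium without it, and RNA was taken 24 h later. The 4 groups are therefore siYT, siNC, siYT+8Br-cAMP and siNC+8Br-cAMP, each with 1 array, all from 1 cell line, and both target genes were hit together in siYT cells.

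Levels are the deposited log2 signals, and a difference of 1 is a 2-fold change on that scale. No group had a replicate, so sizes could not be set against the spread between cultures, and the number of arrays limits the precision. A gene was called by size when the difference reached 1 and the higher array reached 6.22, the median of all gene values. A secondary model, fitted with limma to all genes with siRNA and 8Br-cAMP as additive terms, gave adjusted p-values. Its error contains the departure from additivity as well as array noise. The words rose and fell are used for genes that passed this fit at 0.05.

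The siRNA targets checked the labels. YAP1 was at 6.80 in siYT and 9.48 in siNC, and at 6.29 in siYT+8Br-cAMP and 9.46 in siNC+8Br-cAMP. WWTR1, which encodes TAZ, was at 5.45 in siYT and 7.58 in siNC, and at 5.35 in siYT+8Br-cAMP and 9.13 in siNC+8Br-cAMP. Both genes were low on both siYT arrays, and WWTR1 lay under 6.22 there. Both also lay there below the values under which 95% of the negative controls fell, 7.29 in siYT and 6.98 in siYT+8Br-cAMP. The target genes CCN2, CCN1 and ANKRD1 were 38.0-fold, 23.8-fold and 70.8-fold lower in siYT than in siNC. Of 11 granulosa markers measured, 7 reached 6.22 on some array. Only 5 reached 6.95, under which 95% of the negative controls of all arrays lay. STAR and CYP19A1 were among these, but CYP19A1 was at 5.04 in siNC, and FOXL2 reached at most 5.14. None of the 3 theca, 3 endothelial or 3 leukocyte markers measured reached 6.22, and 1 of 3 epithelial markers did, the keratin KRT7. All 4 fibroblast markers measured did, and their summed log2 level was 42.6 in siYT, 31.3 in siNC, 37.3 in siYT+8Br-cAMP and 29.9 in siNC+8Br-cAMP. LUM (5.34 without and 4.45 with 8Br-cAMP) and DCN (3.38 and 3.86) had the largest siYT minus siNC differences of the 4, against 2.53 and 0.06 for PDGFRA and 0.11 and -0.99 for COL1A1. LUM and DCN reached 6.22 only on the siYT arrays. In siNC and siNC+8Br-cAMP, LUM was at 4.89 and 5.28, and DCN at 5.84 and 4.56. Over the 2197 positive controls siYT minus siNC had a median of -0.36, and of -0.35 with 8Br-cAMP, while the median over all genes was 0.02 and 0.06. The part of the fibroblast markers and of the positive controls in the siRNA differences given next was not tested, beyond the rescaling reported with them.

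All 10 members were above 6.22 on every array, with values between 6.93 and 11.50. The upstream regulators NF2, WWC1 and FRMD6, the phosphatase PTPN14 and the kinase LATS2 were lower in siYT than in siNC in both media, with differences of -1.74 to -0.59 without 8Br-cAMP and of -1.63 to -0.70 with it. LATS1, STK3, STK4, SAV1 and MOB1B differed by -0.29 to 0.53 and by -0.50 to 0.84. These 2 sets of 5 were formed after the values were seen. In all, 6 of 10 members had negative differences in both media, against 35.3% of the 9750 genes past the level filter.

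**Figure D1:**
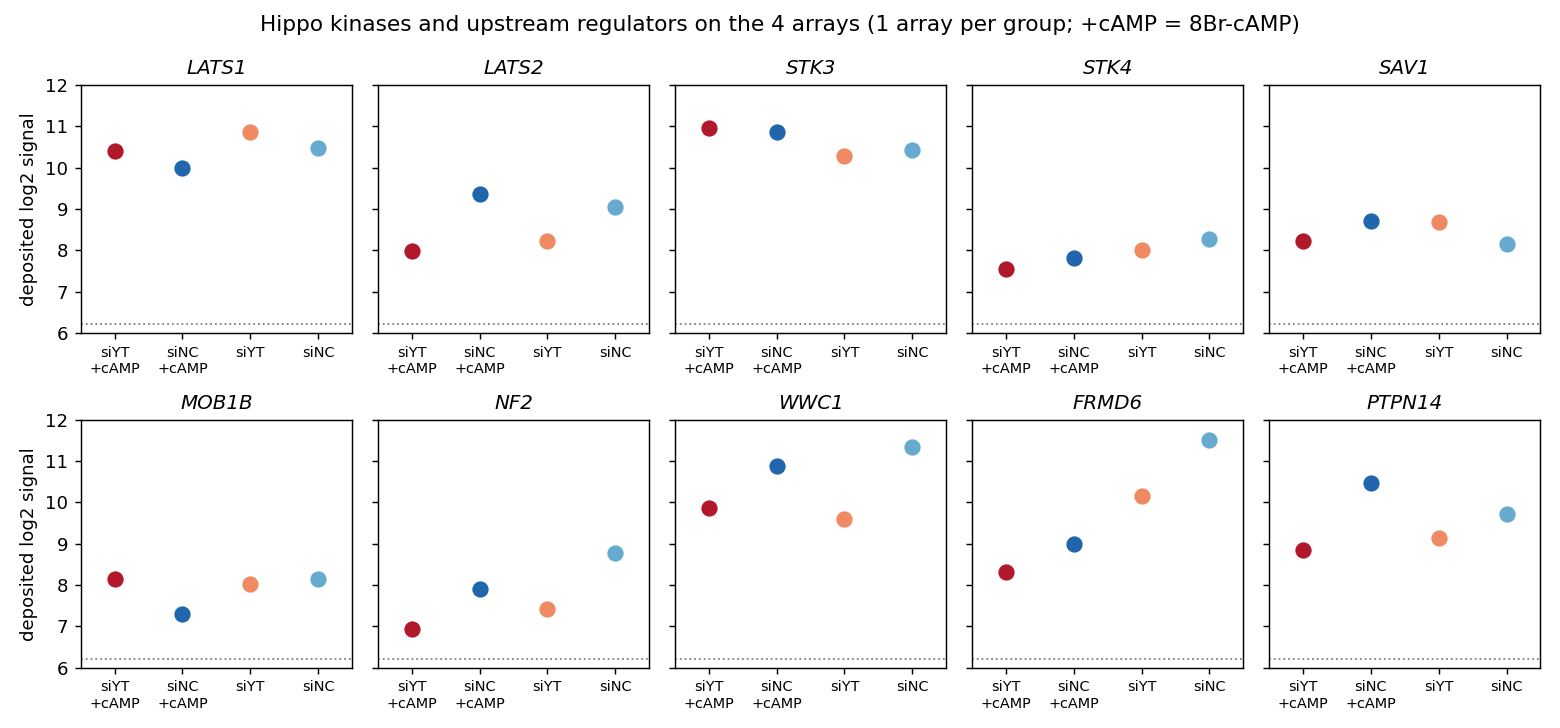
Deposited log2 signal (y axis) of each of the 10 genes on the 4 arrays, 1 point per array, with the level filter of 6.22 as a dotted line. WWC1, NF2, FRMD6, LATS2 and PTPN14 are lower on each siYT array than on the siNC array of the same medium, and FRMD6 is also lower with 8Br-cAMP.

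Without 8Br-cAMP, 3 of the 10 members were called lower (NF2, WWC1 and FRMD6) and 0 higher, where 28.1% of 9407 genes past the filter were called in either direction, 13.8% lower and 14.3% higher. With 8Br-cAMP, 3 were called lower (LATS2, WWC1 and PTPN14) and 0 higher, where 21.7% of 9349 genes were called, 11.2% lower and 10.5% higher. The median of the 10 differences was -0.44 without and -0.60 with 8Br-cAMP. WWC1 was the member called lower in both media, where 688 of the 9750 genes past the filter on some array were lower by at least 1 in both. Limma called 2 members lower (WWC1 and NF2) and 0 higher over both media, beside 8.97% of all genes called, 4.67% lower and 4.3% higher. Limma shares here and below are over all 17687 genes. Only 9750 of these passed the filter on some array, as all members did, so the sets are unlike. At an unadjusted p under 0.05, limma had 5 members lower and 0 higher, beside 3923 of all 17687 genes in either direction. That gene count was not split by direction, so it gives no like share for the 5 lower members.

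These counts moved with the scaling. When arrays were centred on the positive controls, the median siRNA difference of all genes became 0.43 in both media. Calls then numbered 1 lower member (WWC1) without 8Br-cAMP and, with it, 1 lower (PTPN14) and 1 higher (MOB1B), and limma called 0 members, with an adjusted p of 0.0574 for WWC1. Over all genes that centring made 77.6% of the calls without 8Br-cAMP and 77.5% of those with it higher, against 51.0% and 48.2% in the deposited scaling. The 5 genes kept negative differences in both media under it.

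**Figure D2:**
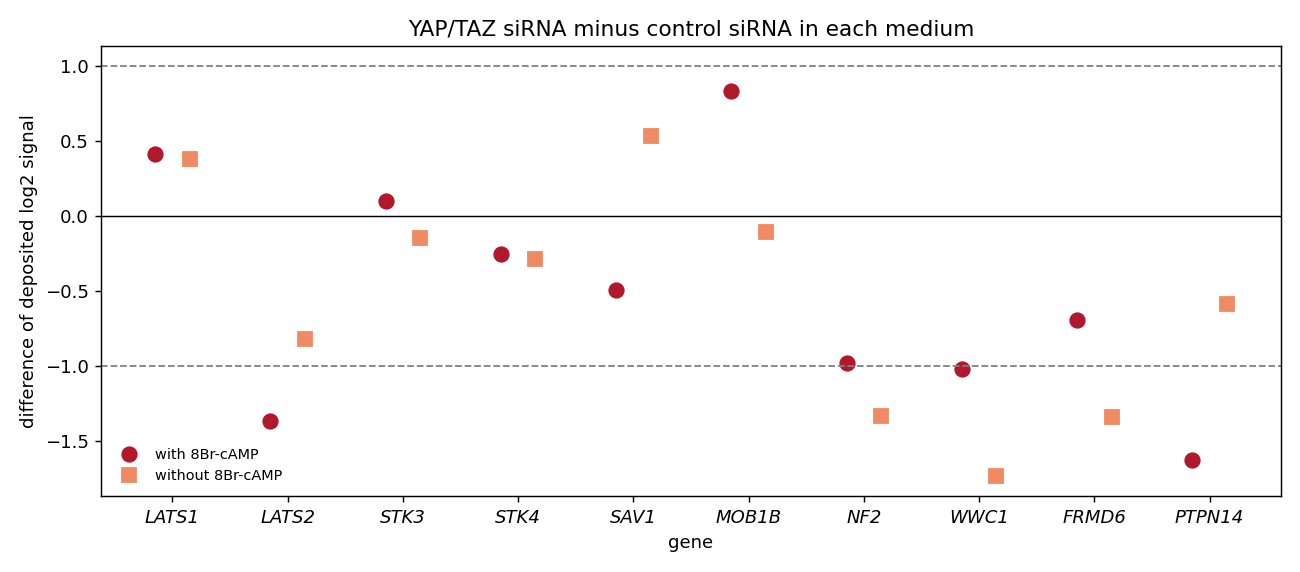
Difference of deposited log2 signal, YAP/TAZ siRNA minus control siRNA (y axis), for each gene (x axis), with 8Br-cAMP (circles) and without it (squares). Dashed lines mark 2-fold. WWC1 is past the lower line in both media, at -1.02 with and -1.74 without 8Br-cAMP.

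The promoters shown are of WWC1, NF2, LATS2 and PTPN14, from the 5 genes set apart above after the values were seen. Those genes shared the direction of the YAP/TAZ target genes. STK4 did so too, with smaller differences of -0.29 and -0.25, and is not shown. Each line gives the 250 bases before the 5′ end of the RefSeq gene in GRCh38.p14, 5′ to 3′ on the gene's strand. The RefSeq window used for FRMD6 belongs to a start 92.7 kb inside that gene, so its bases are not shown. Capitals mark GGAATG, the core recognised by TEAD factors through which YAP and TAZ act, or TGACG, the core of the cyclic AMP response element, on either strand.
LATS2 (chr13:21061587-21061836, minus strand): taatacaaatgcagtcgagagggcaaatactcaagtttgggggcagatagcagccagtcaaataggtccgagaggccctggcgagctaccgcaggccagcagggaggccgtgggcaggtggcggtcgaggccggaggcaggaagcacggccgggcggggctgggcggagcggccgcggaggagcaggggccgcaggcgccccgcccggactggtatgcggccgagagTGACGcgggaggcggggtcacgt
PTPN14 (chr1:214551603-214551852, minus strand): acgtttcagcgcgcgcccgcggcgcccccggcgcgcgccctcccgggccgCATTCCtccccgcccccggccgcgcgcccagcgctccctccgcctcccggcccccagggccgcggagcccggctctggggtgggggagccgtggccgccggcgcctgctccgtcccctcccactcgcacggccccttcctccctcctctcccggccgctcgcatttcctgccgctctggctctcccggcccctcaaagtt
WWC1 (chr5:168291395-168291644, plus strand): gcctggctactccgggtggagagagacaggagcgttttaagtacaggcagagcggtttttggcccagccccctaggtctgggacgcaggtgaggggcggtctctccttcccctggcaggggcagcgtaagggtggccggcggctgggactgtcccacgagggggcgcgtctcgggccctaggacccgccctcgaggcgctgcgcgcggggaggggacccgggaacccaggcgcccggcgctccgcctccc
NF2 (chr22:29603306-29603555, plus strand): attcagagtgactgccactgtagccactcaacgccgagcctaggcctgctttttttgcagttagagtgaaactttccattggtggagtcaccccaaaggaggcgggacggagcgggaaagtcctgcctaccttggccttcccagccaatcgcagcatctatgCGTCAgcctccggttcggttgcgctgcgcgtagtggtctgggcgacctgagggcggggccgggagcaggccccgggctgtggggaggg

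GGAATG was searched on both strands of the 300 bases from 250 before to 50 after the start. LATS1 and NF2 had 2 windows each, and the windows of FRMD6 and MOB1B began at starts inside the gene. The letters were present for 2 of the 9 members with a window, and in 14.0% of all 35116 windows. PTPN14 held it at position -200 on the opposite strand. LATS2 held it at position 10, just past the start, in the stretch cgcccgtGGAATGccaacaa (chr13:21061565-21061584, minus strand). TGACG was present for 2 members, LATS2 and NF2, and in 24.6% of all windows, and the full element TGACGTCA for 0 members and in 1.85% of windows. The stretch of WWC1 held none of these letters. The 4 stretches shown had 62.4% to 80.0% G and C. A match of letters is not a binding site, and this window leaves out distal enhancers.

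WWC1, also called KIBRA, is a scaffold that brings LATS kinases and NF2 together. It was at 9.61 in siYT and 11.34 in siNC, and at 9.86 in siYT+8Br-cAMP and 10.88 in siNC+8Br-cAMP. Both siYT arrays lay below both siNC arrays, and the gap between the lower siNC and the higher siYT array was 1.02. The gene was 3.33-fold lower without and 2.03-fold lower with 8Br-cAMP. WWC1 fell by 1.38 on average, with an SE of 0.326 (limma, adjusted p = 0.0260). Of the genes past the filter, 5.11% had a difference this low or lower without 8Br-cAMP and 10.8% with it. The call with 8Br-cAMP sat at the threshold, and it was lost at -0.97 after centring each array on its gene median.

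NF2 encodes merlin, a membrane-associated protein that recruits LATS kinases to the cell cortex. It was at 7.43 in siYT and 8.77 in siNC, and at 6.93 in siYT+8Br-cAMP and 7.92 in siNC+8Br-cAMP. Both siYT arrays were again below both siNC arrays, with a gap of 0.48. The differences were -1.34 and -0.99, which is 2.53-fold and 1.98-fold lower. NF2 fell by 1.16 on average with an SE of 0.311 (limma, adjusted p = 0.0444). The value of 6.93 was below 6.98, under which 95% of the negative controls of its array lay, and the part of the background in the difference with 8Br-cAMP was not tested.

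FRMD6, also called Willin, is a FERM domain protein of the cell cortex. It was at 10.16 in siYT and 11.50 in siNC, and at 8.31 in siYT+8Br-cAMP and 9.00 in siNC+8Br-cAMP. The siYT array was higher than the siNC+8Br-cAMP array, so the siRNA order held within each medium and not across them. Its siRNA differences were -1.34 and -0.70, and it did not pass for the siRNA (limma, mean -1.02, adjusted p = 0.0826).

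LATS2, the kinase that phosphorylates YAP and TAZ together with LATS1, was at 8.22 in siYT and 9.04 in siNC, and at 7.99 in siYT+8Br-cAMP and 9.36 in siNC+8Br-cAMP. Both siYT arrays were below both siNC arrays, and the neighbours in that order were 0.23, 0.82 and 0.32 apart. The difference was -0.82 without and -1.37 with 8Br-cAMP, 1.77-fold and 2.58-fold lower. LATS2 did not pass (limma, mean -1.09, SE 0.318, adjusted p = 0.0606).

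LATS1, the paralog with the same role, ran the other way. It was at 10.85 in siYT and 10.47 in siNC, and at 10.40 in siYT+8Br-cAMP and 9.98 in siNC+8Br-cAMP. Its siRNA differences of 0.38 and 0.42 were smaller than 2-fold and did not pass (limma, adjusted p = 0.518). Whether LATS2 and LATS1 differ in their response could not be tested with 1 array per group, and levels were not compared between genes because probe sets differ in affinity.

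PTPN14 is a tyrosine phosphatase that binds YAP and holds it in the cytoplasm. It was at 9.14 in siYT and 9.73 in siNC, and at 8.84 in siYT+8Br-cAMP and 10.47 in siNC+8Br-cAMP. Both siYT arrays were below both siNC arrays, and siNC+8Br-cAMP was the highest. The difference was -0.59 without 8Br-cAMP and -1.63, or 3.10-fold lower, with it. PTPN14 did not pass (limma, mean -1.11, SE 0.347, adjusted p = 0.0801).

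The other core components showed no call for the siRNA in either medium. STK4, also called MST1, was at 8.00 in siYT and 8.28 in siNC, and at 7.56 in siYT+8Br-cAMP and 7.81 in siNC+8Br-cAMP. Its differences of -0.29 and -0.25 turned to 0.12 in both media after centring on the positive controls. STK3, also called MST2, was at 10.28 in siYT and 10.42 in siNC, and at 10.96 in siYT+8Br-cAMP and 10.86 in siNC+8Br-cAMP. Its differences of -0.14 and 0.10 had opposite signs, and the first turned to 0.27 with that centring.

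SAV1, the scaffold of STK3 and STK4, was at 8.69 in siYT and 8.15 in siNC, and at 8.22 in siYT+8Br-cAMP and 8.72 in siNC+8Br-cAMP. Its range over the 4 arrays, 0.56, was the smallest of the 10 members. MOB1B, an adaptor that activates LATS kinases, was at 8.03 in siYT and 8.14 in siNC, and at 8.15 in siYT+8Br-cAMP and 7.31 in siNC+8Br-cAMP. For MOB1B the siNC+8Br-cAMP array stood 0.71 below the other 3, which spanned 0.12. None of these 4 genes passed for the siRNA (limma, adjusted p from 0.607 to 0.984).

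The next question was how 8Br-cAMP acted on these genes after each siRNA. FRMD6 was the member with a large difference. It was at 8.31 in siYT+8Br-cAMP and 10.16 in siYT, and at 9.00 in siNC+8Br-cAMP and 11.50 in siNC. Both 8Br-cAMP arrays lay below both arrays without it, by a gap of 1.16. The gene was 3.62-fold lower after siYT and 5.66-fold lower after siNC, and 1.34% and 0.25% of the genes past the filter had a difference this low or lower. FRMD6 fell with 8Br-cAMP, by 2.18 with an SE of 0.322 (limma, adjusted p = 0.00730). Its lowest array was siYT+8Br-cAMP, where both treatments were combined, 3.20 below siNC.

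After siYT, 1 of 10 members was called lower and 0 higher, beside 15.7% of 9263 genes called, 7.92% lower and 7.75% higher. After siNC the counts were again 1 lower and 0 higher, beside 15.4% of 9286 genes called, 7.13% lower and 8.23% higher. Both calls were FRMD6, where 231 of the 9750 genes past the filter on some array were lower by at least 1 after both siRNAs. The median of the 10 differences was -0.37 after siYT and -0.47 after siNC, against -0.02 and -0.03 over all genes. Limma called 1 member lower and 0 higher, where 1.81% of all genes were called, 0.662% lower and 1.15% higher. At an unadjusted p under 0.05 the limma counts of members were the same, beside 2607 of all 17687 genes in either direction. This gene count too was not split by direction.

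The other 9 members differed by -0.50 to 0.68 after siYT and by -0.86 to 0.74 after siNC. LATS1 (-0.46 after siYT and -0.49 after siNC), STK4 (-0.44 and -0.47) and NF2 (-0.50 and -0.86) were lower with 8Br-cAMP in both cases. STK3 was higher in both, by 0.68 and 0.43. None of these reached 2-fold or passed limma, where NF2 had the smallest adjusted p of the 9 at 0.349. The siRNA and 8Br-cAMP differences share arrays, so they are given side by side and not correlated.

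**Figure D3:**
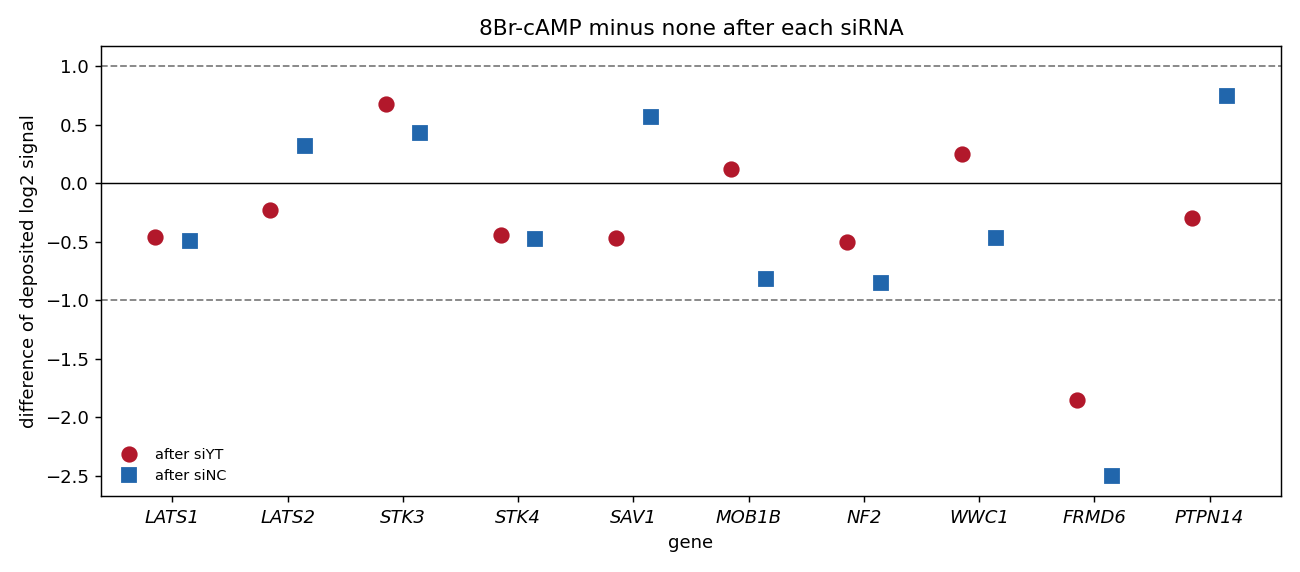
Difference of deposited log2 signal, 8Br-cAMP minus none (y axis), for each gene (x axis), after siYT (circles) and after siNC (squares). Dashed lines mark 2-fold. FRMD6 is past the lower line after both siRNAs, at -1.86 and -2.50, and the other 9 genes lie between the lines.

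The last comparison asked whether the siRNA difference depended on the medium, through the difference of differences, siYT minus siNC in 8Br-cAMP medium less the same in plain medium. PTPN14 (-1.04) and SAV1 (-1.03) were called lower and 0 members higher, beside 15.2% of 9750 genes called, 8.75% lower and 6.47% higher. For PTPN14 the siNC arrays were further apart, with 8Br-cAMP 0.74 above none, than the siYT arrays, with 8Br-cAMP 0.30 below none. SAV1 differed between siYT and siNC by -0.50 with 8Br-cAMP and by 0.53 without it. MOB1B was next at 0.95, with 0.84 and -0.11. All 3 lay near the threshold. After median centring the values were -0.95 for PTPN14, -0.94 for SAV1 and 1.04 for MOB1B, so MOB1B was then called and the other 2 were not. LATS1 (0.04) and STK4 (0.04) had the smallest values, and their siRNA differences in the 2 media were 0.42 and 0.38 for LATS1 and -0.25 and -0.29 for STK4.

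The rest of the pathway was read from 4 lists of 77 other Hippo genes, of which 69 were measured by probe sets naming only that gene and 8 were not analysed here. Without 8Br-cAMP, 60 of the 69 passed the filter, 7 of them were called higher and 5 lower, beside 14.3% and 13.8% of all genes past it. With 8Br-cAMP, 58 passed, 2 were called higher and 5 lower, beside 10.5% and 11.2% of all genes past it. The median siRNA difference of the 69 genes was 0.07 and -0.03. For the siRNA, limma called 2 of the 69 higher and 3 lower, beside 4.3% and 4.67% of all genes. For 8Br-cAMP it called 0 higher and 1 lower, beside 1.15% and 0.662% of all genes. By size, 8Br-cAMP calls after siYT were 1 higher and 9 lower of 58 past the filter, beside 7.75% and 7.92% of all genes past it. Those after siNC were 0 higher and 3 lower of 59, beside 8.23% and 7.13%.

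Among 18 junction, polarity and cadherin regulators, the giant cadherin FAT1 rose, at 1.54 in plain and 1.46 in 8Br-cAMP medium for siYT minus siNC (limma, adjusted p = 0.0132). The polarity proteins PATJ (2.15 and 0.58) and LLGL1 (1.56 and 0.75) did not pass, each with an adjusted p of 0.0583. PATJ lay under 6.22 on 3 arrays. FJX1, whose fly counterpart is a Golgi regulator of the Fat and Dachsous cadherins, differed by -1.22 and -0.87 and did not pass. WWC2 and WWC3, the relatives of WWC1, differed by -1.41 and -0.96 without 8Br-cAMP and by -0.38 and -0.78 with it, and were added after their values were seen. PTPN21, the relative of PTPN14, went the other way from PTPN14 for the siRNA, at 0.94 without and 0.25 with 8Br-cAMP. Its 8Br-cAMP differences were -1.52 after siYT and -0.83 after siNC.

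Among 25 genes of the STRIPAK phosphatase complex, which turns off STK3 and STK4, and of other inhibitors, 1 rose and 3 fell for the siRNA, in the fit that called 4.3% of all genes higher and 4.67% lower. AJUBA, a LIM protein that binds and inhibits LATS kinases, was at 7.34 in siYT and 9.51 in siNC, and at 5.63 in siYT+8Br-cAMP and 8.62 in siNC+8Br-cAMP. AJUBA fell, with differences of -2.16 and -2.99 (limma, adjusted p = 0.00110). STK24, a kinase bound to STRIPAK, fell too (-0.94 and -1.39, adjusted p = 0.0455), while the STRIPAK scaffold STRN rose (1.46 and 0.97, adjusted p = 0.0390). NUAK2, a kinase that also holds back LATS, was the third that fell (-1.35 and -0.95, adjusted p = 0.0471) and was added after its values were seen. On both siYT arrays STK24 (6.53, and 5.76 with 8Br-cAMP) and NUAK2 (6.09 and 5.93) lay below the values under which 95% of the negative controls fell (7.29 and 6.98), as AJUBA did on the siYT+8Br-cAMP array, so these differences were measured against a level within the background. The LIM protein WTIP, at -0.79 and -1.58, did not pass (adjusted p = 0.0517) and lay under 6.22 on 3 arrays.

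Among the 16 partners of the core kinases none passed limma for either treatment. By size, 4 of the 11 past the filter were called lower with 8Br-cAMP after siYT and 0 after siNC. These counts stand beside 7.92% and 7.13% of all genes past the filter. STK38L, a kinase of the LATS family, differed between siYT and siNC by 1.54 and 0.78 (limma, adjusted p = 0.0556). MAP4K4, which can act beside STK3 and STK4, differed by 1.18 and 0.15. MOB1A, the paralog of MOB1B and also added after its values were seen, differed by 0.18 without and 0.07 with 8Br-cAMP. Among 10 genes of YAP/TAZ retention and degradation, YWHAH, an adaptor that binds phosphorylated proteins, fell with 8Br-cAMP, by 1.28 after siYT and by 1.77 after siNC (limma, adjusted p = 0.0415).

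**Figure D4:**
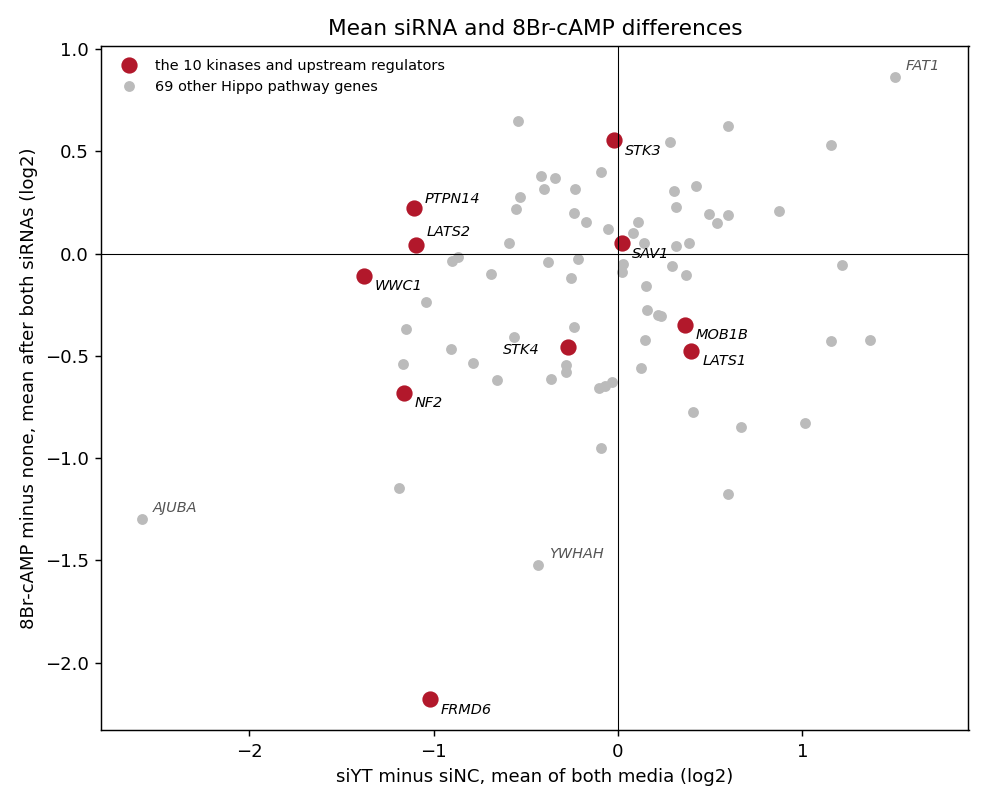
Mean siRNA difference over both media (x axis, log2) against mean 8Br-cAMP difference over both siRNAs (y axis, log2), for the 10 kinases and upstream regulators (red) and 69 other Hippo pathway genes (grey). WWC1, NF2, PTPN14, LATS2 and FRMD6 lie at or beyond -1.02 on the x axis, and FRMD6 lies at -2.18 on the y axis.

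For the 5 members with a range of at least 1 over the arrays, the genes with the most similar profile were sought among 9749 others past the level filter. The measure was the Euclidean distance between the 4 values after each gene's mean was subtracted, so it rests on 4 arrays and is a description. WWC1 was nearest to CLPP, a mitochondrial protease (0.06), and SLFN12 (0.06). NF2 was nearest to XPO5, which exports microRNA precursors (0.04), and NOP58, a core protein of small nucleolar RNPs (0.08).

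LATS2 was nearest to TYW5 (0.03) and to MPC2, a subunit of the mitochondrial pyruvate carrier (0.10). PTPN14 was nearest to the mitochondrial carrier SLC25A30 (0.08) and the transcription factor ZBTB17 (0.12). FRMD6 had the most distant neighbours, FRMD4A, another FERM domain protein (0.27), and CD70, a ligand of the TNF family (0.27). FRMD4A was at 9.83 in siYT, 11.15 in siNC, 8.20 in siYT+8Br-cAMP and 8.95 in siNC+8Br-cAMP. TYW5 and ZBTB17 lay under 6.22 on 2 and 3 arrays.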

How the data were processed

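The deposited table gave log2 values for 24351 probe sets, which the authors made by RMA with Expression Console, per the labels. Versions, annotation build and filters are not given in the sources used here. Deposited values ran from 1.39 to 19.36. A 16-bit scanner cannot give the highest, so a later rescaling is possible, and a fold is then not a ratio of signals. GEO's platform annotation named 1 gene for 17709 probe sets, symbols were updated through RefSeq gene IDs, and 20 genes read by several probe sets were averaged, which left 17687 genes. Promoters are RefSeq sequences of GRCh38.p14, and 9 of 10 members matched.

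Differences between arrays were called at 1 log2 unit with the level filter. The additive fit used limma 3.58.1 in R 4.3.3 on all genes, with 1 residual and 9.24 prior degrees of freedom and Benjamini-Hochberg adjustment. Its p-values say nothing of variation among cultures.

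Members and lists were chosen with earlier results of these data known. Named were all members, the siRNA targets, CCN1, CCN2 and ANKRD1, up to 4 genes per pathway list with the largest mean difference for each treatment, and the 2 nearest profiles. From the rule's genes in the pathway lists, examples are printed. The 8 alternatives covered scaling, log offset, level filter, probe set choice and variance prior.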

Additional observations from a re-analysis of the deposited data

Results flagged for a closer look

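For 6 members, a treatment difference was positive in 1 condition and negative in the other. With 1 array per condition these contrasts were not tested. The values are differences of differences, as defined above.

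SAV1 (-1.03) and MOB1B (0.95) changed sign for both the siRNA and the 8Br-cAMP difference. STK3 (0.25) changed sign for the siRNA, with small differences of -0.14 and 0.10. For the siRNA, 3 of the 10 members had opposite signs between the media, beside 2683 of the 9750 genes past the level filter. No such gene count is given for the other treatment. PTPN14 (-1.04), WWC1 (0.71) and LATS2 (-0.54) changed sign for 8Br-cAMP. With 8Br-cAMP, WWC1 differed by 0.25 after siYT and -0.47 after siNC, PTPN14 by -0.30 and 0.74, and LATS2 by -0.23 and 0.32.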

How the results depend on the processing

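No paired analysis was possible because each group had 1 array. Of the 350 values that the 7 alternatives gave for the 50 differences of members between arrays, 346 kept their sign and 14 moved across a call limit. The 4 that changed sign were STK4 in both media and STK3 and MOB1B without 8Br-cAMP, all in the siRNA difference after centring on the positive controls. That centring left 1 member lower without 8Br-cAMP (against 3) and 1 lower and 1 higher with it (against 3 and 0), and limma called 0 for the siRNA (against 2). Its cause is in the construction, since the siYT arrays are raised as a whole.

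For the difference of differences, median centring and cyclic loess each gave 0 lower and 1 higher (against 2 and 0), and log2 of the linear value plus 32 gave 1 lower. Limma called 5 members lower for the siRNA with cyclic loess and 5 with the filter at the negative controls. Over all genes it then called 2107 of 17687 and 2133 of 8587 in either direction. With the linear value plus 32 it called 0 for the siRNA and 0 for 8Br-cAMP (against 1), and 0 genes in all, although 3964 and 2769 genes had an unadjusted p under 0.05. The causes were not tested. The adjusted p ranged over 7 alternatives from 0.00744 to 0.0962 for WWC1, from 0.0160 to 0.110 for NF2 and from 0.000278 to 0.195 for FRMD6 with 8Br-cAMP. All genes called by limma for 8Br-cAMP numbered 321, and between 0 and 759 under the alternatives. For the siRNA they numbered 1586, and between 0 and 3063. The fit used no level filter, so leaving the filter out gives it no other value.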
